A study of Mus musculus with 14 samples.

Results

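Whole intra-aortic haematopoietic clusters (wIAHCs) picked from the ventral side of the mouse aorta at embryonic day 11 (E11) were compared with ventral wIAHCs picked at E10. Libraries were taken by the stage and side recorded in their names and kept when they held at least 5000 transcripts outside the spike-in controls (ERCC). This gave 38 of the 109 wIAHC libraries, 21 of 36 ventral libraries at E10 and 17 of 34 at E11. The E11 libraries came as 2 collection sets, with 4 of 12 ventral libraries kept in set 1 and 13 of 22 in set 2. Each library is 1 wIAHC and was treated as 1 replicate. All embryos were wild-type C57BL/6, with 28 to 32 somite pairs at E10 and more than 40 at E11, and no treatment is recorded. The study followed the formation of blood stem cells in the aorta by sequencing single sorted cells and single wIAHCs with CEL-Seq, a method that copies RNA from its 3' end and counts molecules by barcodes. The aorta was flushed of blood, the embryo was sliced alive, and each c-kit+ wIAHC was lifted out with a mechanical picker, then picked again to leave loose cells behind.

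Intra-aortic clusters are knots of round cells attached to the inner wall of the aorta. They arise when haemogenic endothelial cells turn into blood cells, and they hold the precursors of haematopoietic stem cells (HSCs) beside more committed progenitors. Clusters on the ventral wall are the usual place where HSC activity is found in the aorta.

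A picked wIAHC is a mixture of few cells. Fewer cells of a type and less RNA per cell cannot be told apart in such a library. Which embryo each wIAHC came from is not given, so some may share an embryo, and p-values over wIAHCs are then too small. Every E10 library belongs to another collection than the E11 libraries, so stage and collection cannot be told apart.

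Depth ran from 5982 to 110728 transcripts per wIAHC at E10 (median 14538). In E11 set 1 the totals were 12336 to 41213 (median 27592), and in set 2 they were 7635 to 54975 (median 11642). The E10 wIAHC just inside the limit of 5000 held 5982 transcripts and the one just outside held 4798. At E11 these values were 7635 and 4248, both from set 2. The mean log2 total at E11 minus E10 was -0.34, a ratio of 0.788 (permutation test, two-sided, p = 0.374, n = 21 and 17). Counted at an equal depth of 5000 transcripts, 2003 to 2539 genes were detected per wIAHC at E10, 2160 to 2463 in set 1 and 1717 to 2649 in set 2. The means were 2360 ± 137 genes at E10 and 2342 ± 228 at E11 (SD; permutation test, two-sided, p = 0.765).

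The spike-in controls were not alike across collections. Of the E10 libraries, 10 held 150.9 to 569 ERCC molecules and 11 held 2.00 to 12.1. Set 1 held 492.9 to 9679, and set 2 held none except 1 molecule in wIAHC 7. Transcripts per ERCC molecule therefore rest on 21 and 5 libraries, and the mean log2 value at E11 minus E10 was -2.69 (exact permutation test, two-sided, p = 0.110). Without the set 2 library, which rests on 1 ERCC molecule, it was -4.83 (exact permutation test, two-sided, p = 0.00221, n = 21 and 4). Between the 10 E10 libraries with over 100 ERCC molecules and the 4 of set 1 the difference was -2.26 (exact permutation test, two-sided, p = 0.0280). The methods describe a single ERCC solution for all tubes, while the molecules recovered differed as above, so these ratios were not read as RNA per wIAHC.

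The libraries carried the genes that mark intra-aortic clusters. Gpr56, an adhesion receptor of HSCs and cluster cells, had 0.689 to 12.3 transcripts per 10,000 at E10 (median 6.17). In set 1 its values were 14.3, 5.01, 7.47 and 8.22 in wIAHCs 16, 17, 18 and 23, and in set 2 they ran from 0 to 8.79 (median 2.97). It was found in 21 of 21 libraries at E10 and 16 of 17 at E11. Kit, the receptor used to see the clusters, had medians of 2.47 at E10, 4.68 in set 1 and 2.63 in set 2. Runx1, the transcription factor needed for the endothelial-to-haematopoietic transition, had medians of 2.22, 2.06 and 2.24, and Gata2, a factor of HSC formation, 0.736, 1.10 and 1.08. Ptprc, the gene of the pan-leukocyte protein CD45, had a median of 0 at E10 with a transcript in 9 of 21 libraries, and it was seen in 4 of 4 in set 1 and 6 of 13 in set 2. All these ranges overlap between the stages.

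Set 2 wIAHCs 7 and 9 stand apart from the other libraries kept, because haemoglobin genes took 13.2% and 23.6% of their transcripts. Globins took 0 to 0.0518% of transcripts at E10, 0.0073 to 0.164% in set 1 and 0.192 to 0.725% in the other 11 libraries of set 2. Below the limit of 5000 transcripts there were globin-rich ventral libraries elsewhere too. Globins took 27.0% in E10 wIAHC 19 and 30.4% in set 1 wIAHC 5, which held 3442 and 3771 transcripts. Set 2 wIAHCs 7 and 9 held no transcript of Kit or Cd34, and neither did set 2 wIAHC 30, where globins took 0.725%, and E10 wIAHC 17. Without the 3 libraries over 10% globin, wIAHCs 7 and 9 and a dorsal wIAHC of the same fit, Aldoa, Atp5a1, Ptma, Hmgb2 and Srsf7, named below as lower, had adjusted p of 0.0575, 0.0694, 0.0730, 0.0541 and 0.0675 in edgeR and so missed the threshold. Their log2 fold changes were then -0.66, -0.38, -0.29, -0.63 and -0.52. Globins and ferritins are given with and without these 3 libraries below.

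**Figure D1:**
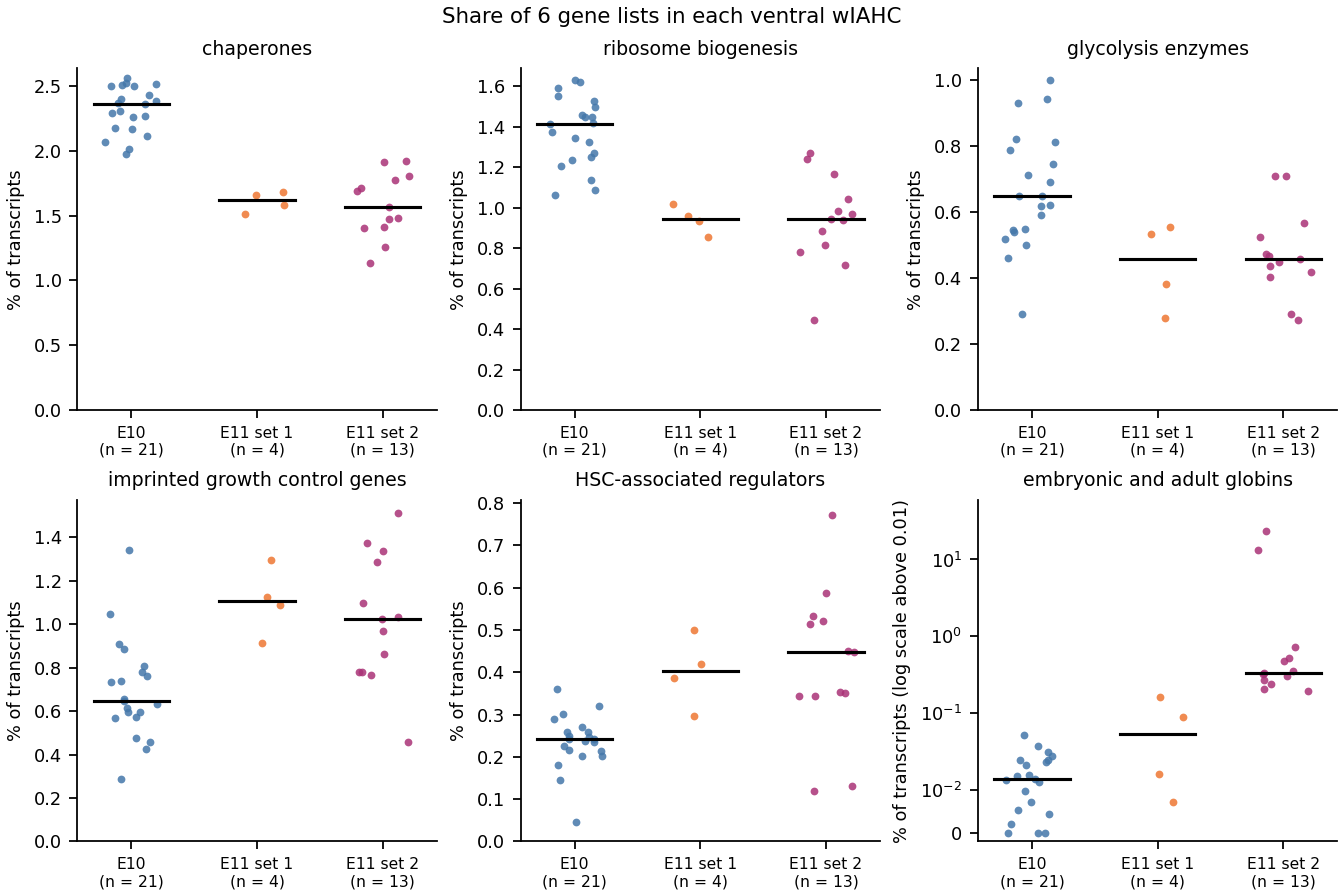
Share of transcripts (%) taken by the genes of each list in each ventral wIAHC, as 1 point per library for E10 (21), E11 set 1 (4) and E11 set 2 (13). Chaperone shares lie between 1.97 and 2.56% at E10 and between 1.13 and 1.92% at E11, so the stages do not overlap.

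At E11, ventral wIAHCs held more transcripts of the growth-linked imprinted genes H19 and Igf2, of Slc23a1, Nphs1, Rab33b and Casc4, of the nuclear RNA Malat1 and, in set 2, of embryonic globins. They held fewer transcripts of chaperones such as Hspd1, of the nucleolar genes Npm1 and Ncl, of the glycolysis enzyme Ldha and of the nuclear transport GTPase Ran. The test covered the 260 genes that passed the filter on low counts. Of these, 81 differed between the stages (31.2%), 47 higher at E11 (18.1%) and 34 lower (13.1%), by the quasi-likelihood test of edgeR at an adjusted p of 0.05. The median log2 change of all 260 genes was 0.00. Scaling by library totals alone moved that median to -0.13 and gave 30 genes higher and 56 lower. A second test with a lower count minimum, added after the data were seen and called the wider test here, covered 1631 genes, of which 190 differed (11.6%), 123 higher and 67 lower. Of the 81 genes 57 differed there too, and Cox6c, Rpl31, Atp5a1, Ptma, Hmgb2 and Srsf7 were among those that did not.

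**Figure D2:**
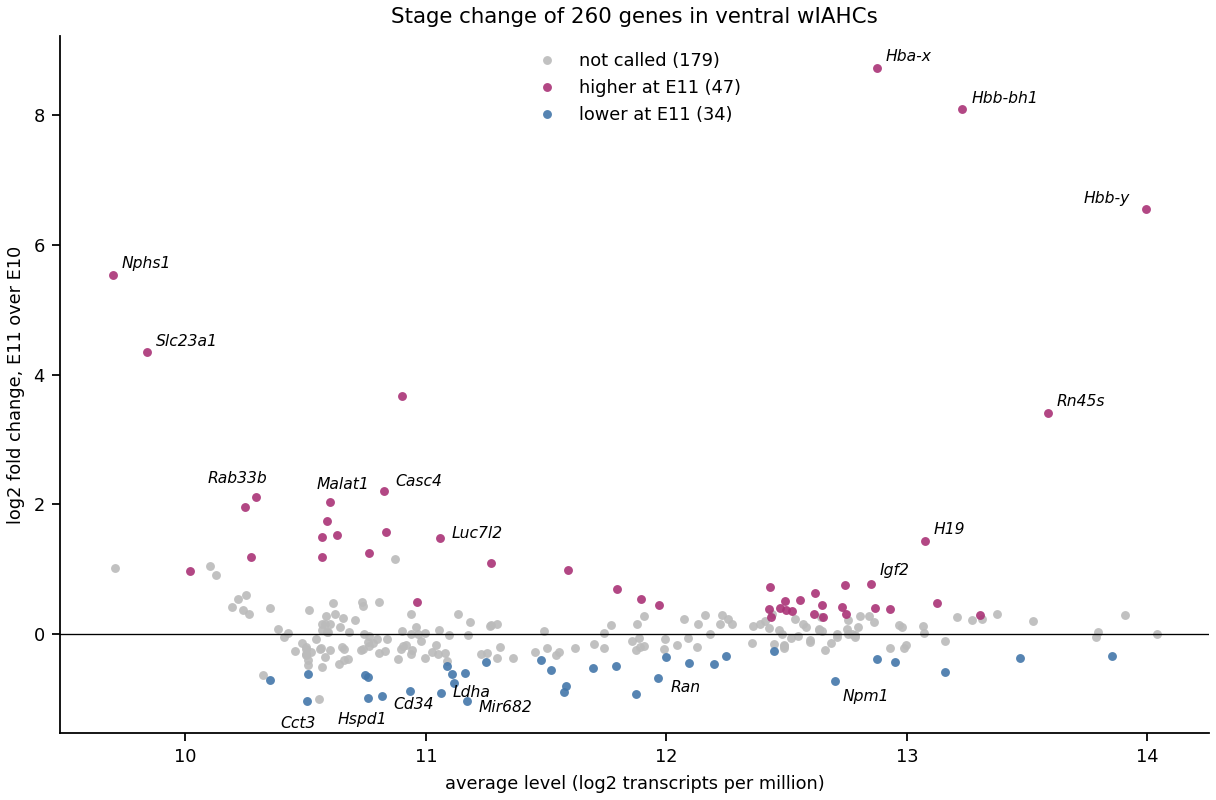
Log2 fold change between E11 and E10 ventral wIAHCs (vertical axis) against average level on a log2 scale (horizontal axis) for the 260 genes tested. Genes that were higher at E11 (47) are purple, genes that were lower (34) are blue, and the falls lie between -0.27 and -1.04 while the rises reach 8.74.

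Slc23a1, which encodes a vitamin C transporter, had the smallest p of all genes. It had 0 to 1.502 transcripts per 10,000 at E10 (median 0.0905). In set 1 the values were 1.63, 13.9, 5.05 and 3.33 in wIAHCs 16, 17, 18 and 23, and in set 2 they ran from 0 to 23.1 (median 3.88). All 4 wIAHCs of set 1 lay above the whole E10 range, while 1 of set 2 had no transcript. The log2 fold change was 4.34 ± 0.44 (SE; adjusted p = 9.6e-12), with 16 of 17 E11 wIAHCs above the E10 median and 14 above the highest E10 value.

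Nphs1 encodes nephrin, a protein known from the kidney filter. At E10 it was found in 4 of 21 wIAHCs, with at most 1.38 transcripts per 10,000. Set 1 had 0.812, 16.8, 3.24 and 2.31, and set 2 had 0.642 to 18.8 (median 2.40). Every E11 wIAHC held it, and 12 of 17 lay above the highest E10 value, so the ranges overlap only at the low end of E11. Nphs1 rose by 5.54 ± 0.62 on the log2 scale (adjusted p = 2.2e-10). Nphs1 was among 17 markers of mesonephros and coelomic epithelium, the tissue next to the aorta. In the wider test Wnt4, a signalling ligand of the same list, also rose (log2 fold change 2.54 ± 0.46, adjusted p = 1.9e-05). Nphs1 was the most abundant member of the list at E11. The list's summed share was 0 to 0.128% at E10, 0.0407 to 0.172% in set 1 and 0.0193 to 0.223% in set 2. Its median was 0.00944% at E10 and 0.0590% at E11, with 17 of 17 E11 wIAHCs above the E10 median. Members of the list were unlike each other. Pax2, Pax8, Lhx1, Epcam, Cdh1, Emx2 and Upk3b had no transcript in the E11 libraries. Wt1 was found in 1 of 17 at E11 and in 7 of 21 at E10. Whether cells of that tissue were in the libraries was not tested.

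Rab33b, a small GTPase of Golgi traffic, had 0 to 6.88 transcripts per 10,000 at E10 (median 2.08). Set 1 had 4.92, 22.2, 7.47 and 6.09, and set 2 had 1.20 to 20.2 (median 3.23). Its log2 fold change was 2.11 ± 0.33 (adjusted p = 8.3e-07), with 13 of 17 above the E10 median. Set 2 wIAHCs 10, 11, 12, 18 and 20 had 20.2, 20.2, 10.6, 12.4 and 12.9 transcripts of Rab33b, and the other 8 had at most 4.27. The same 5 wIAHCs were the high ones for Slc23a1, with 23.1, 14.4, 11.999, 12.4 and 12.7, where the other 8 had at most 5.82. Within set 2 these genes were high in the same libraries, and in set 1 both were highest in wIAHC 17.

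Casc4 had 0 to 6.26 transcripts per 10,000 at E10 (median 1.61). Set 1 had 4.92, 29.0, 13.2 and 3.67, and set 2 had 1.20 to 32.0 (median 2.97). It rose by a log2 fold change of 2.21 ± 0.43 (adjusted p = 5.2e-05), with 14 of 17 above the E10 median and 5 above the highest E10 value. Luc7l2, a splicing factor of the U1 particle, rose by 1.48 ± 0.30 (adjusted p = 8.6e-05), from a median of 3.999 at E10 to 10.6 in set 1 and 7.95 in set 2. Both were highest in set 2 wIAHC 10 and, within set 1, in wIAHC 17.

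**Figure D3:**
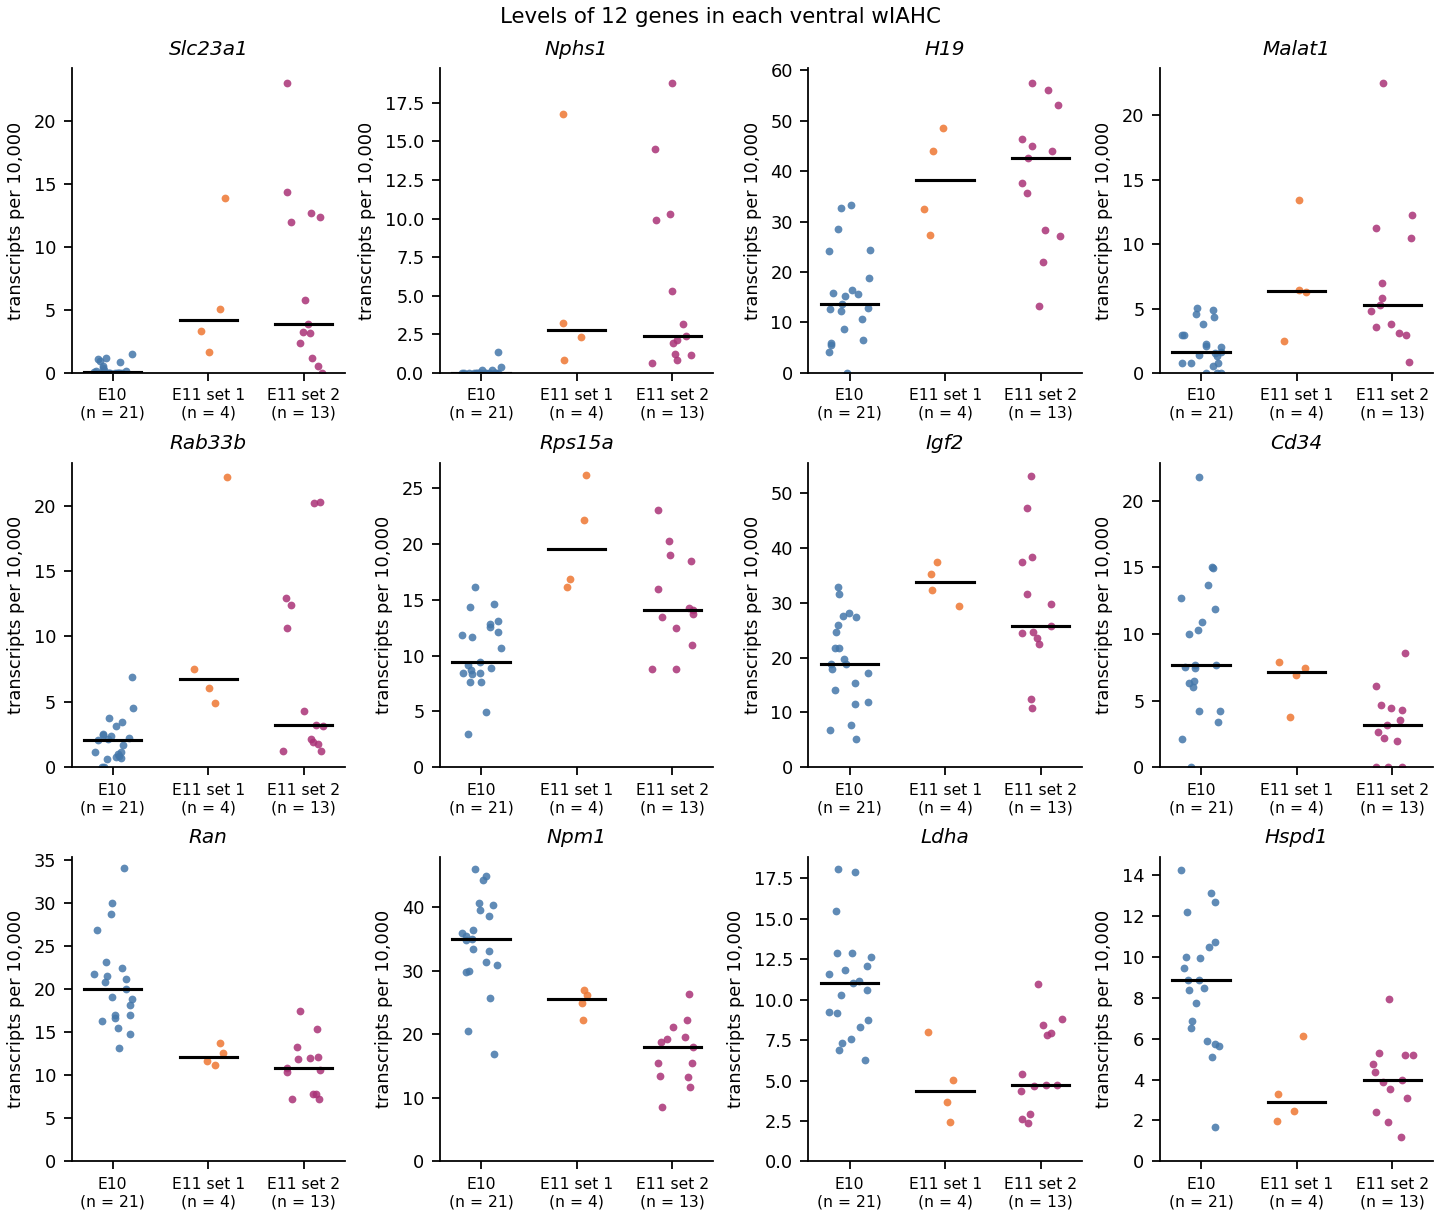
Transcripts per 10,000 in each ventral wIAHC for 12 genes, as 1 point per library for E10 (21), E11 set 1 (4) and E11 set 2 (13), with bars at the medians. Ran lies between 13.1 and 34.0 at E10 and between 7.26 and 17.4 at E11, and Slc23a1 has at most 1.502 at E10 and up to 23.1 at E11.

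Some imprinted growth control genes rose, and none of those tested passed as lower. Of 27 listed genes in the table, 5 were tested, and 3 were higher and none lower, with a median log2 change of 0.77 against 0.00 for all genes tested, of which 47 of 260 were higher. In the wider test 9 were tested, with 5 higher and none lower, beside 123 higher of all 1631. H19, a long non-coding RNA read from the maternal allele, had 0 to 33.3 transcripts per 10,000 at E10 (median 13.7), 32.4, 27.3, 44.03 and 48.6 in set 1, and 13.3 to 57.5 in set 2 (median 42.5). The E11 wIAHCs were mostly high, and 11 of 17 lay above the highest E10 value. The log2 fold change was 1.43 ± 0.26 (adjusted p = 1.8e-05), with 16 of 17 above the E10 median. Igf2, the paternally read growth factor gene next to H19 on chromosome 7, had 5.04 to 32.9 at E10 (median 18.9). It had 35.3, 32.2, 37.5 and 29.4 in set 1 and 10.8 to 53.2 in set 2 (median 25.7), so the stages overlap. It rose by 0.77 ± 0.20 (adjusted p = 0.00166; 15 of 17 above the E10 median). Cdkn1c, a cell cycle inhibitor that is also imprinted, rose by 1.19 ± 0.33 (adjusted p = 0.00405; 15 of 17). Its medians were 1.67 at E10, 3.88 in set 1 and 6.22 in set 2, and its change was 0.43 in set 1 (adjusted p = 0.693) and 1.402 in set 2 (adjusted p = 0.00107). Nnat rose as well in the wider test (2.03 ± 0.58, adjusted p = 0.0109). Dlk1, also on the list, did not pass the filter of the first test. It was below the E10 median in 12 of 17 E11 wIAHCs and above it in 5. It had up to 13.1 transcripts per 10,000 at E10 and at most 1.31 at E11. The summed share of the list was 0.287 to 1.34% at E10 (median 0.645%), 0.914 to 1.29% in set 1 and 0.460 to 1.51% in set 2.

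Several chaperones were lower in ventral wIAHCs at E11. Of 27 listed genes, 7 were tested, 6 were lower and none was higher, with a median log2 change of -0.45, where 34 of all 260 were lower. The wider test gave 9 lower of 25 and none higher, beside 67 lower of all 1631. Together they took 1.97 to 2.56% of transcripts at E10 (median 2.36%), 1.51 to 1.68% in set 1 and 1.13 to 1.92% in set 2. All 17 E11 wIAHCs lay below all 21 E10 wIAHCs. With globins and Rn45s left out of the totals, 16 of 17 did. Ppia, a peptidyl-prolyl isomerase, was the most abundant member (-0.43 ± 0.11, adjusted p = 0.00129, 16 of 17 below the E10 median).

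Hspd1, the mitochondrial chaperonin HSP60, had 1.67 to 14.2 transcripts per 10,000 at E10 (median 8.85). Set 1 had 2.45, 3.31, 6.11 and 1.98, and set 2 had 1.20 to 7.95 (median 3.96). All 17 E11 wIAHCs were below the E10 median, although the ranges overlap at the low end of E10. The log2 fold change was -0.98 ± 0.19 (adjusted p = 3.2e-05). Its partner Hspe1, which is read from the opposite strand of the same start region on chromosome 1, fell by 0.62 on the log2 scale (adjusted p = 0.00277, 16 of 17 below the E10 median). Cct3, a subunit of the cytosolic chaperonin that folds actin and tubulin, changed by -1.04 ± 0.23 (adjusted p = 2.8e-04), and Cct6a of the same ring by -0.81 ± 0.21 in the wider test (adjusted p = 0.00301).

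Some nucleolar and ribosome assembly genes were lower too. Of 44 assembly genes, 4 were tested and 2 were lower, with a median of -0.60, and in the wider test 7 of 25 were lower and 3 were higher, beside 67 lower and 123 higher of all 1631. Npm1, nucleophosmin, had 16.8 to 46.0045 transcripts per 10,000 at E10 (median 34.9). Set 1 had 25.0, 22.2, 26.9 and 26.2, and set 2 had 8.48 to 26.3 (median 17.98). All 17 E11 wIAHCs were below the E10 median. It changed by -0.73 ± 0.13 (adjusted p = 9.1e-06). Ncl, nucleolin, changed by -0.81 ± 0.19 (adjusted p = 6.7e-04, 16 of 17), with medians of 13.7 at E10, 11.1 in set 1 and 5.82 in set 2. Its change was -0.33 in set 1 (adjusted p = 0.515) and -1.06 in set 2. Srm, the enzyme that makes spermidine, changed in the wider test by -1.46 ± 0.30 (adjusted p = 1.6e-04), from a median of 5.41 at E10 to 1.30 and 1.67. Nhp2 changed by -0.91 ± 0.22 (adjusted p = 0.00155). The higher members were Ttf1 (2.84 ± 0.41, adjusted p = 1.4e-07), Krr1 and Exosc2. The list's share was 1.06 to 1.63% at E10, 0.853 to 1.02% in set 1 and 0.445 to 1.27% in set 2, and 14 of 17 E11 wIAHCs lay below the lowest E10 value.

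Of 80 ribosomal protein genes, 73 were tested, and 18 were higher and 5 lower at E11, where 47 and 34 of all 260 were. In the wider test 7 of 75 were higher and 3 lower, near the 123 and 67 of all 1631. Their median change was 0.13, and -0.02 with library totals alone. Rps15a had 3.01 to 16.1 transcripts per 10,000 at E10 (median 9.43), 16.9, 22.2, 26.2 and 16.1 in set 1 and 8.76 to 23.1 in set 2 (median 14.1). Set 1 lay at or above the top of the E10 range, and set 2 overlapped it. Rps15a rose by 0.69 ± 0.13 (adjusted p = 1.8e-05, 15 of 17 above the E10 median). Rps29 rose by 0.76 ± 0.14 (adjusted p = 1.8e-05, 16 of 17). Rpl4 changed by -0.58 ± 0.15 (adjusted p = 0.00213, 16 of 17 below the E10 median) and Rps3a1 by -0.37 ± 0.10 (adjusted p = 0.00212, 17 of 17). Rpl37, Rpl31 and Rpl10 were the other lower ones. Rpl37 was at -0.01 in set 1 (adjusted p = 0.975) and -0.81 in set 2. All ribosomal proteins together took 15.7 to 26.7% of transcripts at E10, 17.9 to 23.3% in set 1 and 14.5 to 22.2% in set 2.

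Ran, which drives transport through nuclear pores, had the smallest p among the lower genes. It had 13.1 to 34.0 transcripts per 10,000 at E10 (median 20.0), 11.7, 12.6, 13.8 and 11.1 in set 1, and 7.26 to 17.4 in set 2 (median 10.8). Every E11 wIAHC was below the E10 median, and 13 of 17 were below the lowest E10 value. The log2 fold change was -0.69 ± 0.11 (adjusted p = 8.5e-07). The feature annotated as Mir682 fell by 1.03 on the log2 scale (adjusted p = 2.5e-06, 15 of 17 below the E10 median). Its reads come from a 3' end method for long transcripts and need not be the mature microRNA.

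Some glycolysis enzymes were lower. Of 21 listed genes, 4 were tested, 3 were lower and none was higher, with a median of -0.69, where 13.1% of all genes tested were lower. The wider test gave 3 lower of 8 and none higher (median -0.52), beside 67 lower of all 1631. Ldha, the lactate dehydrogenase subunit that makes lactate, had 6.26 to 18.1 transcripts per 10,000 at E10 (median 11.02). Set 1 had 2.45, 5.01, 8.02 and 3.67, and set 2 had 2.40 to 10.99 (median 4.73). All 17 E11 wIAHCs were below the E10 median and 11 were below the lowest E10 value. It changed by -0.91 ± 0.19 (adjusted p = 1.1e-04). Pkm, pyruvate kinase, changed by -0.66 ± 0.23 (adjusted p = 0.0222), and Aldoa, aldolase, by -0.71 ± 0.27 (adjusted p = 0.0350), each in 15 of 17. Pkm missed the threshold in each set alone, at -0.74 in set 1 (adjusted p = 0.209) and -0.63 in set 2 (adjusted p = 0.0519). The share of the list was 0.290 to 0.998% at E10, 0.280 to 0.554% in set 1 and 0.273 to 0.708% in set 2, so its ranges overlap. Of 96 respiratory chain genes, 11 were tested, with Cox6c higher (0.49 ± 0.19, adjusted p = 0.0399, 14 of 17 above the E10 median) and Atp5a1 lower (-0.43 ± 0.16, adjusted p = 0.0316, 16 of 17 below). In the first test 47 of all 260 genes were higher and 34 lower. The wider test gave 3 higher of 72 (Ndufa6, Ndufa3 and Ndufv3) and 1 lower (Cycs), beside 123 higher and 67 lower of all 1631. Cox6c and Atp5a1 missed the threshold there. The median of the 11 was 0.07, and -0.08 with library totals alone.

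Ran, Hspd1 and Ldha, which fell together, each hold the letters CACGTG near their start, the palindromic box that Myc family factors are known to bind. Their promoters are shown because, of the lower genes with a promoter in the table, only these 3 hold these letters. The sequences run from 250 bases before to 50 after the start, are RefSeq sequences of build GRCm38.p6, and capitals mark CACGTG, which reads the same on both strands. The windows are chr5:129019906-129020205 on the plus strand for Ran, chr1:55088194-55088493 on the minus strand for Hspd1 and chr7:46845554-46845853 on the plus strand for Ldha.
Ran: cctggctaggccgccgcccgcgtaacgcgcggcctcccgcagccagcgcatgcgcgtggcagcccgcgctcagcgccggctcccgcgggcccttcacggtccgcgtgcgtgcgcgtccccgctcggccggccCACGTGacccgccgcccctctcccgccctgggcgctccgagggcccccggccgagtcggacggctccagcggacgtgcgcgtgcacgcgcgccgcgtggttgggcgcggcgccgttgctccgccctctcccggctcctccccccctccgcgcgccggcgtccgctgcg
Hspd1: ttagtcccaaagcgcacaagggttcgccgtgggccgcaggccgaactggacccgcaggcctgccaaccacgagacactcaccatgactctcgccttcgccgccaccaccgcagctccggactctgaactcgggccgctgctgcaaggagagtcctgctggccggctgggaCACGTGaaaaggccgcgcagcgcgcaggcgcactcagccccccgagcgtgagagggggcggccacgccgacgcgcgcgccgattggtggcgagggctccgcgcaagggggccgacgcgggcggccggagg
Ldha: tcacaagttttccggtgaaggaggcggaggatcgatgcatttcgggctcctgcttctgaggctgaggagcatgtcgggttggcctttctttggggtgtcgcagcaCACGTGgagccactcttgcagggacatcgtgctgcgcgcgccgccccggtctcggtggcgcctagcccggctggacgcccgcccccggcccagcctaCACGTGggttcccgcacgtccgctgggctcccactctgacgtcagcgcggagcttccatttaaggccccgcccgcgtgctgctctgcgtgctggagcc
The letters were found in 2187 of 27025 promoters of the same length (8.09%). Of the genes tested, 184 of 260 had a promoter in the table and 32 of them held the letters (17.39%). These were 3 of 23 lower genes (13.04%), 5 of 29 higher genes (17.24%) and 24 of 132 that did not pass the test (18.18%). A match describes the letters alone.

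A few splicing and chromatin genes differed. Of 34 splicing factors, 15 were tested, with Luc7l2 higher and Srsf2, Srsf7 and Hnrnpa2b1 lower (median -0.20), beside 13.1% lower among all genes tested. Hnrnpa2b1 was at 0.21 in set 1 (adjusted p = 0.572) and -0.93 in set 2. The wider test gave 1 higher and 2 lower of 32, beside 123 higher and 67 lower of all 1631. Srsf2, an SR protein, had 4.88 to 15.2 transcripts per 10,000 at E10 (median 9.33), 4.09, 3.74, 7.47 and 8.22 in set 1 and 2.17 to 7.22 in set 2 (median 3.88). All 17 were below the E10 median and 12 below the lowest E10 value. It changed by -0.88 ± 0.18 (adjusted p = 9.0e-05). Of 27 histone and chromatin genes of dividing cells, 9 were tested, and H2afz, Ptma and Hmgb2 were lower, at -0.47 ± 0.14, -0.34 ± 0.13 and -0.63 ± 0.24 (adjusted p = 0.00732, 0.0325 and 0.0416; 15, 15 and 14 of 17 below the E10 median). By set, H2afz was at -0.08 in set 1 (adjusted p = 0.860) and -0.65 in set 2, and Ptma at -0.11 (adjusted p = 0.815) and -0.43. The list's median was -0.23. The wider test gave 2 higher and 1 lower of 18 (median 0.08), and its higher ones, the histone genes Hist3h2a and Hist1h2ao, rose by 3.53 ± 0.47 and 3.08 ± 0.47 (adjusted p = 9.6e-09 and 4.2e-07; 14 and 13 of 17 above the E10 median).

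Cell cycle lists held few differences. No DNA replication gene passed the count filter of the first test. In the wider test 1 of 17 was higher (Pola2, 1.396 ± 0.38, adjusted p = 0.00676) and none was lower. Of 23 genes of G2 and mitosis, 2 were higher, Prr11 (2.97 ± 0.43, adjusted p = 1.4e-07) and the kinetochore gene Spc24 (1.18 ± 0.23, adjusted p = 8.4e-05), each in 16 of 17, and none was lower. Among all genes of that test 123 of 1631 were higher. The share of replication genes was 0.379 to 0.834% at E10, 0.375 to 0.677% in set 1 and 0.368 to 0.825% in set 2. Its median was 0.677% at E10 and 0.565% at E11, with 15 of 17 E11 wIAHCs below the E10 median. The share of G2 and mitosis genes was 0.432 to 0.858% at E10 and 0.207 to 1.32% at E11, with 4 of 17 above the highest E10 value.

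Among marker genes of clusters and HSCs, Cd34 differed between the stages. Of 24 listed genes, Gpr56 and Cd34 were tested. Gpr56 was at -0.23 ± 0.30 (adjusted p = 0.568, 12 of 17 below the E10 median). Cd34, a surface glycoprotein of stem cells and endothelium, had 0 to 21.8 transcripts per 10,000 at E10 (median 7.64), 7.43, 3.74, 6.92 and 7.86 in set 1 and 0 to 8.56 in set 2 (median 3.14). Set 1 lay near the E10 median and set 2 lower, with all ranges overlapping. Its log2 fold change was -0.96 ± 0.30 (adjusted p = 0.00961, 15 of 17 below the E10 median). It was -0.47 for set 1 (adjusted p = 0.575) and -1.21 for set 2 (adjusted p = 0.00375), and the difference between the sets was not tested, because Cd34 did not pass the filter there. In the wider test 15 of the list were tested, with Cd34 lower and none higher, where 11.6% of all genes differed. Kit was at 0.29 ± 0.31 (adjusted p = 0.621) and Runx1 at -0.07 ± 0.30 (adjusted p = 0.927). Endothelial Pecam1, Cdh5 and Vwf were at 0.30, 0.04 and 0.07 (adjusted p = 0.713, 0.962 and 0.945).

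Regulators linked to HSC identity held rises and no falls. None of the 30 passed the first count filter, and of 15 in the wider test 4 were higher and none lower, with a median of 0.78, beside 123 higher and 67 lower and a median of 0.00 for all 1631 genes. Sox4, a transcription factor, had 0 to 1.59 transcripts per 10,000 at E10 (median 0.416), 1.63, 2.48, 1.72 and 0.984 in set 1 and 0 to 7.67 in set 2 (median 1.76). Of the E11 wIAHCs 11 of 17 lay above the highest E10 value. It rose by 1.92 ± 0.40 (adjusted p = 1.7e-04). Txnip, a brake on glucose uptake, rose by 1.26 ± 0.34 (adjusted p = 0.00678, 13 of 17 above the E10 median). The interferon-induced membrane genes Ifitm1 and Ifitm3 rose by 1.44 ± 0.36 and 1.45 ± 0.37 (adjusted p = 0.00281 and 0.00387; 16 and 13 of 17). Both are also on the list of antigen presentation and interferon response below, and count among its 7 higher genes. Hlf, a factor of long-term HSCs, was at 0.78 ± 0.37 (adjusted p = 0.177), with medians of 0.598 at E10, 1.23 in set 1 and 1.76 in set 2. The list took 0.0467 to 0.359% of transcripts at E10 (median 0.242%), 0.296 to 0.500% in set 1 and 0.120 to 0.772% in set 2, and 10 of 17 E11 wIAHCs lay above the highest E10 value. Levels of these genes are low, at a few molecules per library.

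Several immune response genes rose in the wider test. Of 48 genes of antigen presentation and interferon response, 13 passed its filter, and 7 were higher and none lower (median 1.44), beside 123 higher and 67 lower of all 1631. Tapbpl, which edits peptides on class I molecules, rose by 3.31 ± 0.47 (adjusted p = 8.1e-08), the class I genes H2-T23 and H2-Q4 by 2.56 ± 0.38 and 3.21 ± 0.62 (adjusted p = 2.1e-07 and 5.7e-05) and Xaf1 by 2.20 ± 0.41 (adjusted p = 3.1e-05). They were above the E10 median in 13, 14, 11 and 17 of 17 wIAHCs. Within set 1, Tapbpl, H2-T23 and Xaf1 were highest in wIAHC 17, at 8.49, 6.30 and 8.05 transcripts per 10,000. H2-Q4 had 18.6 in set 1 wIAHC 16 and 0.819 to 2.48 in the other libraries of set 1. Ratios of immune genes in sorted single cells, most of them in the other direction, are given under the other observations. Of 35 genes of inflammatory signalling, 5 passed the filter, and Cflar, Naip5, Irak1 and Cxcr2 were higher, and the RNase gene Zc3h12a was lower. Cflar, an inhibitor of caspase 8, had 0 to 6.30 transcripts per 10,000 at E10 (median 0.969), 0.812, 26.8, 6.38 and 3.33 in set 1 and 0 to 39.2 in set 2 (median 4.36). Its highest values were again in single wIAHCs, set 1 wIAHC 17 among them. It rose by 2.48 ± 0.42 (adjusted p = 3.9e-06, 15 of 17 above the E10 median). Cxcr2, a chemokine receptor, passed both tests and rose by 1.58 ± 0.46 in the first (adjusted p = 0.00565, 12 of 17), and its highest values were 28.0 at E10 and 49.8 at E11. Zc3h12a had a median of 1.16 and a highest value of 10.6 at E10, and was found in 3 of 17 E11 wIAHCs with at most 1.20. It changed by -3.74 ± 0.62 (adjusted p = 2.9e-06).

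Embryonic globins, the haemoglobin chains of primitive red cells, were higher in set 2. Hbb-y had 0 to 4.95 transcripts per 10,000 at E10 (median 0.834), 4.92, 9.38, 0.487 and 0.984 in set 1 and 9.66 to 1060.5 in set 2 (median 21.1). Every wIAHC of set 2 lay above all E10 wIAHCs, and set 1 overlapped E10. The log2 fold change was 6.55 ± 0.91 (adjusted p = 7.4e-08, 16 of 17 above the E10 median). It was 3.70 without the 3 globin-rich libraries. For set 1 it was 1.44 (adjusted p = 0.591) and for set 2 6.92 (adjusted p = 3.6e-09). The test between the sets, over both sides of the aorta, gave 5.97 (adjusted p = 5.8e-04). Hba-x and Hbb-bh1, which complete the 3 globins tested, rose by 8.74 ± 1.23 and 8.09 ± 1.17 (adjusted p = 8.6e-08 and 1.3e-07; 16 and 17 of 17 above the E10 median). Without the 3 globin-rich libraries, Hbb-bh1 was at 4.52 (adjusted p = 2.7e-06) and Hba-x did not pass the count filter. In the other 11 libraries of set 2 Hba-x had 2.35 to 9.70 transcripts per 10,000, where its highest value at E10 was 1.56. The adult chain Hba-a1 had no transcript at E10, and was seen in 2 of 4 and 5 of 13 libraries at E11, with up to 63.5, and up to 1.08 in set 2 without wIAHCs 7 and 9. Of 16 erythroid markers, Car2 rose in the wider test (2.47 ± 0.41, adjusted p = 3.6e-06, 14 of 17 above the E10 median). The list took 0 to 0.0352% of transcripts at E10, 0.0164 to 0.0594% in set 1 and 0.0177 to 0.668% in set 2, or up to 0.0699% there without wIAHCs 7 and 9. Its members Klf1 and Slc4a1 had no transcript at E10 or in set 1. The ferritin genes Fth1 and Ftl1 were higher by 0.98 and 0.54 (adjusted p = 0.00291 and 0.0366), and by 0.34 and 0.23 without the 3 globin-rich libraries (adjusted p = 0.131 and 0.341). By set, Fth1 was at 0.28 in set 1 (adjusted p = 0.757) and 1.17 in set 2. Ftl1 was at -0.30 in set 1 (adjusted p = 0.624) and 0.76 in set 2, so its direction turned.

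Among nuclear and ribosomal RNAs, Malat1 and Rn45s were higher. Malat1 had 0 to 5.04 transcripts per 10,000 at E10 (median 1.64), 13.4, 6.30, 2.48 and 6.44 in set 1 and 0.878 to 22.5 in set 2 (median 5.28). Of 17 E11 wIAHCs 10 lay above the highest E10 value. It rose by 2.03 ± 0.37 (adjusted p = 1.5e-05, 16 of 17 above the E10 median). Rn45s, the precursor of ribosomal RNA, had 1.26 to 50.02 at E10, 14.3, 12.1, 13.5 and 11.9 in set 1 and 10.8 to 237 in set 2 (median 43.6). It rose by 3.42 ± 0.43 (adjusted p = 4.1e-09, 17 of 17 above the E10 median), by 1.12 in set 1 (adjusted p = 0.252) and by 3.77 in set 2. The test between the sets, which takes ventral and dorsal wIAHCs together, gave 0.68 for it (adjusted p = 0.535). Rn45s took 0.119 to 0.143% of transcripts in ventral wIAHCs of set 1 and 0.172 to 2.995% in dorsal ones, so the ventral sets alone were not compared by it.

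Markers of other cell types were summed in each wIAHC. The 27 macrophage markers took 0.00691 to 0.286% of transcripts at E10, 0.0163 to 0.0742% in set 1 and 0.0226 to 0.184% in set 2. Apoe was the most abundant, C1qa, C1qb, Cd14, Ctss and Emr1 had no transcript in any ventral wIAHC, and 0 of 1 tested in the wider test differed. Of 28 mesenchyme markers, Cdkn1c, Map1b and Loxl2 were higher among 5 tested in the wider test. In that test 123 of all 1631 genes were higher and 67 lower. The list's share was 0.0234 to 0.438% at E10, 0.0812 to 0.194% in set 1 and 0.0921 to 0.412% in set 2. Its median was 0.0985% at E10 and 0.194% at E11, with 15 of 17 E11 wIAHCs above the E10 median, and Cdkn1c was its most abundant gene at both stages. Of its members Pdgfrb, Lum and Tcf21 were at 0, but Cdkn1c alone did not make up the share. The highest shares at E11 were 0.412% and 0.372%, in set 2 wIAHCs 23 and 5. Cdkn1c had 12.2 and 5.46 transcripts there, on the scale used for single genes above. Other members of the list therefore made up most of the share in these libraries. The mesonephros and coelomic epithelium share was above the E10 median in 17 of 17. Col1a1 was at 0 in E10 and set 1 and was found in 7 of 13 libraries of set 2. Acta2 was the higher 1 of 6 smooth muscle markers in the wider test (1.64 ± 0.42, adjusted p = 0.00334, 12 of 17 above the E10 median). Of 2 megakaryocyte markers Rap1b was lower (-0.82 ± 0.27, adjusted p = 0.0308), and of 2 myeloid progenitor markers neither differed. The part of such cells in the changes above was not tested.

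The E11 sets were also compared with E10 apart. Of the 260 genes, 28 differed in set 1 (10.8%), 19 higher and 9 lower, and 84 in set 2 (32.3%), 50 higher and 34 lower. Without set 1 wIAHC 17, 11 were higher and 9 lower in set 1. These comparisons share their E10 libraries and differ in the number of E11 libraries, 4 and 13. Slc23a1 was at 4.05 in set 1 and 4.44 in set 2, Nphs1 at 5.42 and 5.59, H19 at 1.34 and 1.46, Malat1 at 1.93 and 2.07 and Ran at -0.68 and -0.69. Ldha was at -1.15 and -0.82 and Hspd1 at -1.20 and -0.90. Of the genes named above, Slc23a1, Nphs1, Rab33b, Casc4, Luc7l2, H19, Malat1, Rps29, Rps15a, Ran, Mir682, Hspd1, Hspe1, Cct3 and Ldha passed the test in set 1, and the others of the first test did not. Cox6c, Rpl10, Rpl31, Pkm and Atp5a1 passed it in neither set alone. Hnrnpa2b1 was at 0.21 and -0.93, and Npm1 at -0.43 and -0.86. The sets were tested against each other over both sides of the aorta, and 38 of 167 genes differed (22.8%), 22 higher in set 2 and 16 lower. Of the 81 genes that differed between the stages, 60 had this test and 19 differed between the sets. Hnrnpa2b1 was lower in set 2, at -0.98 (adjusted p = 5.8e-04), as was Npm1 at -0.55 (adjusted p = 0.00457), while H19 was at 0.08 (adjusted p = 0.936) and Nphs1 at 0.20 (adjusted p = 0.926).

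**Figure D4:**
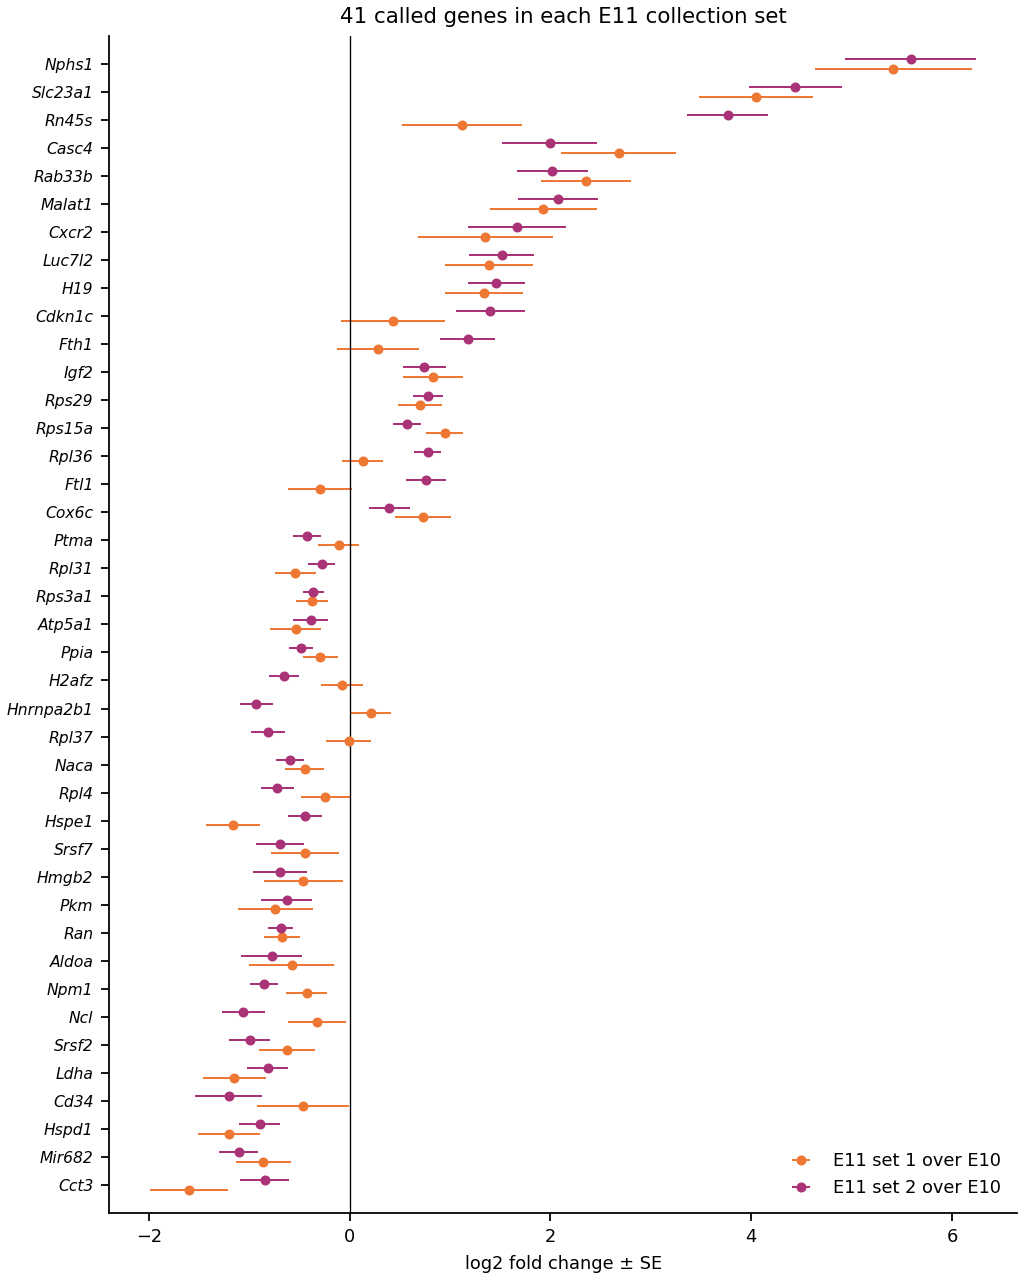
Log2 fold change ± SE against E10 (horizontal axis) in E11 set 1 and E11 set 2 for named genes other than globins that differed between the stages, 1 gene per line, with the E10 libraries shared by both sets. Slc23a1 lies at 4.05 in set 1 and 4.44 in set 2, and Hnrnpa2b1 at 0.21 and -0.93.

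Dorsal wIAHCs, which lie on the opposite wall, gave the same contrast with 7 libraries at E10 and 12 at E11. There 24 of 260 genes differed (9.23%), 19 higher and 5 lower. Of these, 17 had also differed in ventral wIAHCs, which is 17 of 24 dorsal and 17 of 81 ventral genes, and all 17 had the same direction. Slc23a1 was at 4.05 in dorsal wIAHCs (adjusted p = 0.00147), H19 at 1.53 (adjusted p = 0.00673), Igf2 at 1.3997 (adjusted p = 0.00149) and Casc4 at 2.37 (adjusted p = 0.0102). Rab33b was at 0.43 (adjusted p = 0.664) and Cxcr2 at 0.02 (adjusted p = 0.992). The difference between the ventral and the dorsal change was tested for each gene, and 0 of 260 passed in edgeR (0.00%), with 26 at an unadjusted p under 0.05. DESeq2 also gave 0, with 27. For Rab33b the difference was 1.68 ± 0.64 (adjusted p = 0.408) and for Ran -0.25 ± 0.20 (adjusted p = 0.814). With 7 dorsal libraries at E10, a miss of the threshold does not show that the sides changed alike.

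**Figure D5:**
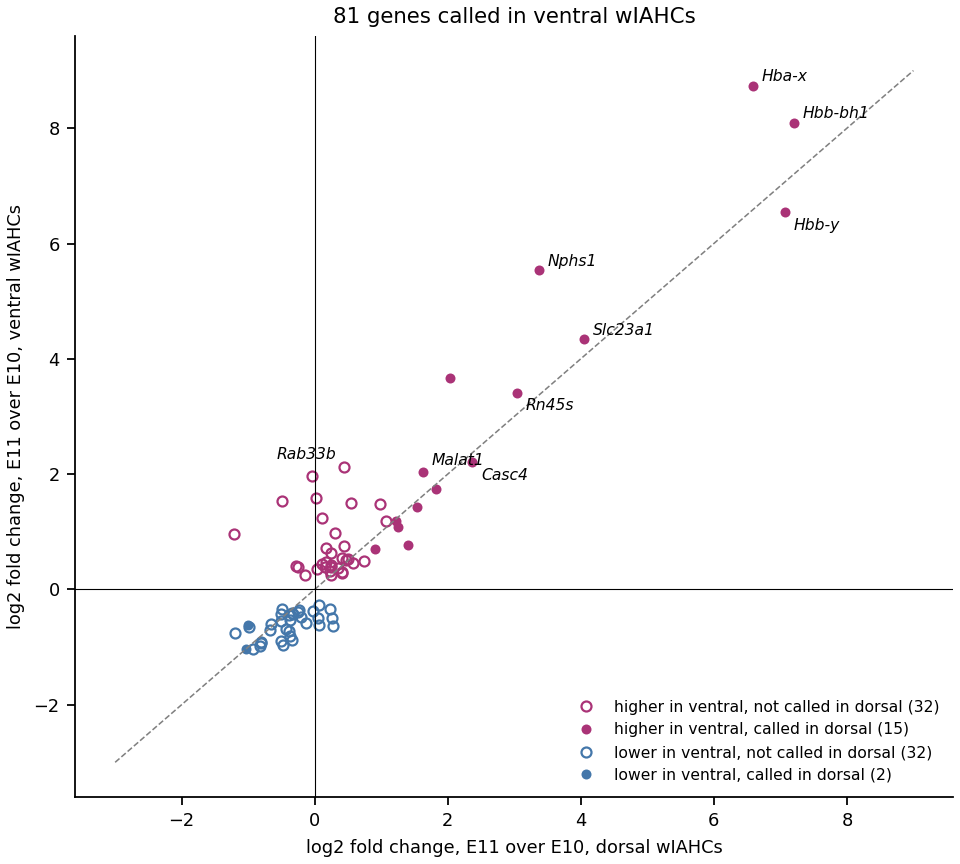
Log2 fold change between E11 and E10 in ventral wIAHCs (vertical axis) and in dorsal wIAHCs (horizontal axis) for the 81 genes that differed in ventral wIAHCs, with the dashed line marking equal change. Filled points (15 higher and 2 lower) also differed in dorsal wIAHCs, and open points (32 higher and 32 lower) did not pass the test there.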

How the data were processed

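The wIAHC values are expected counts of transcripts: the authors deposited unique barcode counts already corrected for barcode collisions, from reads that the submitters' notes say were mapped to mm10 with BWA 0.6.2-r126. Genes were tested in edgeR 4.0.16 (R 4.3.3) with TMM scaling, a quasi-likelihood fit of 57 libraries in 4 groups of stage and side, filterByExpr with a minimum count of 10 and Benjamini-Hochberg adjustment at 0.05. The wider test used a minimum count of 3. DESeq2 1.42.0 was the second tool. Single values were compared by permutation over wIAHCs, exact or with 100000 resamples. Python 3.11.15, numpy 2.4.6, pandas 2.3.3, scipy 1.17.1 and matplotlib 3.10.9 did the rest, and the code was tested on simulated data.

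Named genes were the 12 with the smallest p in each direction, list members that differed, and marker genes, 59 in all, of which 46 were tested and 45 differed. The 35 gene lists and the libraries were chosen with earlier results of these data known. In all, 20 other settings were tried for the ventral test. Those chosen after these data were seen were the minimum count of 3, the splits of E10 by spike-in level, the scaling without Rn45s and globins, the set checks and leaving out each set 1 wIAHC. A few genes are not reported here. A list of sex-linked genes was skipped, and the 847 columns of per-cell values that were not needed were left out.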

Additional observations from a re-analysis of the deposited data

Results flagged for a closer look

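In E11 set 1, 84 measures were examined for a wIAHC far from the other 3, by a gap test for small groups that flags about 1 in 20 groups by chance. wIAHC 23 held 9679 ERCC molecules, against 492.9 to 915 in the others. wIAHC 17 had 2160 genes at 5000 transcripts (others 2413 to 2463) and a mesonephros and coelomic epithelium share of 0.172% (others 0.0407 to 0.0596%). It also had 16.8 transcripts of Nphs1 per 10,000 (others 0.812 to 3.24), 22.2 of Rab33b (4.92 to 7.47), 20.7 of Cxcr2 (4.01 to 5.58) and 10.7 of Mir682 (4.09 to 5.05). wIAHC 16 had 34.3 transcripts of Ppia (others 30.4 to 30.8) and 10.8 of Hmgb2 (3.74 to 4.79).

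Named genes that differed between the E11 sets in their own edgeR test were set apart too. On the log2 scale set 2 minus set 1 was 5.97 for Hbb-y, 6.29 for Hba-x, 7.21 for Hbb-bh1 and 0.65 for Rpl36. It was -0.55 for Npm1, -0.67 for Ncl, -0.47 for Rpl4, -0.83 for Rpl37, -0.48 for Ptma and -0.98 for Hnrnpa2b1.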

How the results depend on the processing

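The ventral test gave 81 genes, and 310 with no filter on low genes (40 of the 81 among them), 190 with a minimum count of 3 (57 of the 81), 132 with at least 10000 transcripts (63), 26 with libraries thinned to 5000 transcripts (24), 44 with set 1 only (26) and 52 against the E10 wIAHCs with under 100 ERCC molecules (39). The other settings gave 60 to 105. The filter and the number of libraries change how many genes are tested, and the cause of the other differences was not tested. The difference between the sides gave 21 genes with no filter. Set 2 against set 1 gave 81 with no filter and 8 with at least 10000 transcripts. Set 1 against E10 gave 116 with no filter, 97 with a minimum count of 3 and 20 to 24 with 1 wIAHC left out, and set 2 against E10 gave 304 and 196. For named genes 839 values were compared: 711 kept call and direction, 120 were weaker and 8 turned. Of the 711, 46 come from the limit of 1% on macrophage markers. That limit left out no library, so these values could not change. Ftl1 was at -0.28 with set 1 only, Hnrnpa2b1 at 0.22 and Gpr56 at 0.46. Between the E10 wIAHCs with at least 100 ERCC molecules and set 1, Ftl1 was at -0.45, Rpl37 at 0.25, Hnrnpa2b1 at 0.45 and Gpr56 at 0.20, and Gpr56 was at 0.22 against the other E10 wIAHCs. The log2 difference in transcripts per wIAHC was 0.28 with set 1 only. Transcripts per ERCC molecule were at -4.83 with set 1 only and without globin-rich libraries, and at -2.26 against E10 libraries with at least 100 ERCC molecules. The difference in genes at 5000 transcripts was 6.405 with set 1 only and 44.9 without globin-rich libraries. Genes at 5000 transcripts with a minimum of 3000, and the ERCC ratio for set 2 alone (1 library), were not run.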

Other observations

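Sorted single cells of the same series, 73 at E10 and 201 at E11 with 3000 transcripts each, are described here with no test. The E11 cells were thinned from the 5000 transcripts deposited. The authors describe choosing the cluster cells of both stages on Gpr56. It was found in 73 of 73 cells at E10 and, after thinning, in 182 of 201 at E11. The selection was not matched between the stages here. Ribosomal proteins are absent from the E10 table and take 20.98% at E11, which alone would set other genes at 0.790 of their E10 level. Of the named genes that rose in wIAHCs, 15 had a transcript in cells of both stages, and 10 had a ratio of E11 to E10 below 0.790 and 5 above. Of those that fell, 20 had one, with 16 below and 4 above, so most named genes of both directions were below. Among the falls the ratio was 0.599 for Ran, 0.577 for Npm1, 0.606 for Hspd1 and 0.621 for Ldha, but 1.38 for Mir682, 1.11 for Srsf2 and 1.02 for Naca. Among the rises it was 1.05 for H19, 1.06 for Malat1 and 1.00 for Igf2, but 0.0141 for Slc23a1, 0.178 for Cxcr2, 0.308 for Rab33b, 0.435 for Luc7l2 and 0.438 for Casc4, the opposite direction to wIAHCs. Slc23a1 had 2.82 transcripts per cell at E10, in 65 of 73 cells, and 0.0398 at E11, in 8 of 201. Nphs1 had 7 transcripts in all cells at E10 and 6 at E11, too few to give a direction. Hbb-y was at 0.0379. Of the immune genes that rose in the wider test, Tapbpl was at 0.182, Xaf1 at 0.133, Naip5 at 0.363 and H2-T23 at 0.484. Ifitm1 was at 0.543, Irak1 at 0.560 and Cflar at 0.590, also below 0.790. Ifitm3 was at 0.828, H2-Q4 at 1.09 and Dtx3l at 1.31. Tapbpl rests on 16 transcripts at E10 and 8 at E11, and H2-Q4 on 2 and 6. Wnt4 was at 0.285, from 14 and 11 transcripts.

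The remaining lists held few genes that differed in ventral wIAHCs. In the first test 0 of 10 actin cytoskeleton genes, 0 of 1 fetal programme gene and 1 of 1 gene from the non-IAHC list (Cdkn1c, higher) differed. Cxcr2 was the only cytokine receptor tested there. The non-IAHC list holds genes that the study used as marks of cells outside the clusters. Its summed share had a median of 0.0329% at E10 and 0.0913% at E11. Of the E11 wIAHCs 13 of 17 lay above the E10 median and 0 above the highest E10 value of 0.267%. In the wider test 123 of all 1631 genes were higher. There Lgals1 and S100a11 were higher among 28 actin cytoskeleton genes (1.47 ± 0.37 and 1.11 ± 0.31), Nrp1 among 11 endothelial markers (1.75 ± 0.59) and Dtx3l among 2 Notch pathway genes (1.83 ± 0.42). Lars2, a protein-coding gene, was also higher among the 6 tested from the list of nuclear and ribosomal RNAs (1.76 ± 0.33). Ifitm3 was higher as the 1 germ cell marker tested, where Dppa3 was at 0. None differed among 7 pan-haematopoietic signalling genes, 7 immediate early genes, 6 fetal programme genes and 3 BMP and TGF-beta genes. The table holds no mitochondrially encoded gene.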
